A study of Homo sapiens with 6 samples.

Results

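The CEACAM genes, which encode the carcinoembryonic antigen-related cell adhesion molecules, were examined in cultured A549 cells, an established human lung adenocarcinoma line. The 10 members were taken by symbol (CEACAM1, CEACAM3, CEACAM4, CEACAM5, CEACAM6, CEACAM7, CEACAM8, CEACAM16, CEACAM19 and CEACAM21) from the 58676 listed genes, and CEACAM6 was selected on its TPM, which rose in A549 Rec. The 10 members were chosen by their names, and no member other than CEACAM6 by its values. A549 Rec carried a human recoverin cDNA with a myc tag, A549 MOCK carried the empty plasmid, and RNA from 2D cultures of each was sequenced as 3 libraries. Both came from recoverin-negative A549 cells that were transduced with a retroviral vector, selected with puromycin and cultured for 6 days by the labels. As the sources do not say whether the 3 libraries of a group came from separate cultures, the p-values measure the spread between these libraries, which may be technical. The methods name 2 sequencing instruments, and which library was run on which is not given in the sources used here.

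CEACAM proteins belong to the immunoglobulin superfamily and bind each other, and some bacteria, at the surface of epithelial cells and leukocytes. CEACAM5, CEACAM6, CEACAM7 and CEACAM8 are held in the membrane by a glycosylphosphatidylinositol (GPI) anchor, whereas CEACAM1, CEACAM3 and CEACAM4 cross the membrane and signal through tyrosine motifs in their tails. CEACAM5 is the carcinoembryonic antigen measured in serum as a tumor marker, and CEACAM6 is known to be raised in many carcinomas, including those of the lung.

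The genes lie on the long arm of chromosome 19. By the coordinates of the deposited annotation (GRCh38), CEACAM6 (ENSG00000086548) spans 41750977 to 41772208 on the plus strand. CEACAM5 (41708585 to 41729798, plus strand) and CEACAM7 (41673307 to 41706976, minus strand) lie on its lower side, and CEACAM3 (41796437 to 41811553, plus strand) on its upper side. CEACAM4 (41618971 to 41627074) and CEACAM21 (41549518 to 41586844) are also near, while CEACAM1 (42507304 to 42561234), CEACAM8 (42580241 to 42595055), CEACAM19 (44662278 to 44684359) and CEACAM16 (44699151 to 44710714) lie farther along the chromosome.

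The upstream sequences of CEACAM6 and of its relatives are shown because the genes resemble each other there while their levels differ. Each runs from 250 to 31 bases before the RefSeq start site (GRCh38.p14) and is written 5′ to 3′ on the strand of the gene. The RefSeq start sites lie inside the longer spans of the deposited annotation given above. Capitals mark the palindrome CACGTG, an E-box known as a binding motif of basic helix-loop-helix factors, or the 6 bases aligned with it. They lie at chr19:41755280-41755499 (plus) for CEACAM6, chr19:41708376-41708595 (plus) for CEACAM5 and chr19:42528512-42528731 (minus) for CEACAM1.
CEACAM6: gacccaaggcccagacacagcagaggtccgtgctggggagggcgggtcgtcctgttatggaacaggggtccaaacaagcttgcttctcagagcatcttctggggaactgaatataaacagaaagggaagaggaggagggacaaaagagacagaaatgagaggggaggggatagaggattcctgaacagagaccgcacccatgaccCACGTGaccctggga
CEACAM5: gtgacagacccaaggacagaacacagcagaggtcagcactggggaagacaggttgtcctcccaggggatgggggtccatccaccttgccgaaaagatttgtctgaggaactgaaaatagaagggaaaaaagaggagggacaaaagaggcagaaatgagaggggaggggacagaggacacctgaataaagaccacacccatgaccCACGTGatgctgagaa
CEACAM1: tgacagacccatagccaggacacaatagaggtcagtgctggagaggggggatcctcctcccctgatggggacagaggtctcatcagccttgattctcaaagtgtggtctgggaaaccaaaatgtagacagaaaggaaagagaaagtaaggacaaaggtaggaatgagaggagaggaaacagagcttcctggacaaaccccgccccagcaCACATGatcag
For CEACAM7, 25 bases around the aligned position are given (chr19:41688304-41688328, minus), and the same stretch of CEACAM6 (chr19:41755471-41755495, plus) is set beside it.
CEACAM7: ccccacccctggacCATGTGatctt
CEACAM6: ccgcacccatgaccCACGTGaccct

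CACGTG was found upstream of CEACAM6 and CEACAM5, at 45 and 46 bases before the start site. The aligned bases were CATGTG in CEACAM7 and CACATG in CEACAM1. Of the 8 members with an entry in the RefSeq promoter table, 2 held CACGTG (on either strand, which is the same for a palindrome), and 5.4% of 35116 promoters held it in a window of the same 220 bases. The sequence TATAAA stood upstream of CEACAM6 alone among the 8 (8.08% of all promoters, either strand), and GGGCGG upstream of 4, CEACAM6 and CEACAM1 among them (38.9% of all promoters, either strand). Aligned base by base, CEACAM6 was identical to CEACAM5 at 169 of 213 positions (79.3%), to CEACAM7 at 173 of 218 (79.4%) and to CEACAM1 at 156 of 209 (74.6%). A match is a description of the sequence and does not show that a factor binds there.

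The values are TPM (transcripts per 1000000), in which the reads of a gene are divided by its length and each library is scaled to the same sum of 1000000, so that levels can be set beside each other between genes. Whole reads, recovered from the TPM and the gene lengths, came to 15183490 to 18572167 per library. Mitochondrially encoded genes held 13.3% to 34.5% of the TPM, most in both replicate 3 libraries. RCVRN, the recoverin gene, was listed at 0 in each A549 MOCK library and at 322 to 339 TPM in A549 Rec. Of the markers of epithelium, KRT18, KRT8 and KRT7 were high (mean TPM of 2941, 2504 and 607), while EPCAM had a mean TPM of 2.08 and KRT19 of 0.136. The alveolar type II markers SFTPA1, SFTPA2, SFTPB, SFTPC and NKX2-1 were at or near 0, with 0 to 20 reads over the 6 libraries, and the 9 listed genes of that list summed to 22.6 to 32.5 TPM in the A549 MOCK libraries and 26.5 to 29.1 TPM in the A549 Rec libraries, mostly ABCA3. Of the leukocyte markers, CSF3R, FCGR3B, MPO and CD3E had no read in any library and PTPRC had 7 in all. The 10 leukocyte markers, of which 6 were detected, summed to 38.9 to 77.7 TPM in the A549 MOCK libraries and 66.7 to 99.2 TPM in the A549 Rec libraries, mostly from S100A9. Of the 6 tested epithelial markers, KRT7 was the one whose groups were apart (575 to 600 and 615 to 640 TPM), with a log2 difference of 0.09. Over all tested genes, A549 Rec was wholly above A549 MOCK in 2.47%.

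CEACAM1, CEACAM6, CEACAM19 and CEACAM7 were the members that were tested, as they reached a TPM of 1 in 3 or more libraries. CEACAM5 and CEACAM16 were detected at a low level, and CEACAM3, CEACAM4, CEACAM8 and CEACAM21 were listed at 0 in every library. Thus 6 of the 10 members were detected, and 4 passed the filter.

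**Figure D1:**
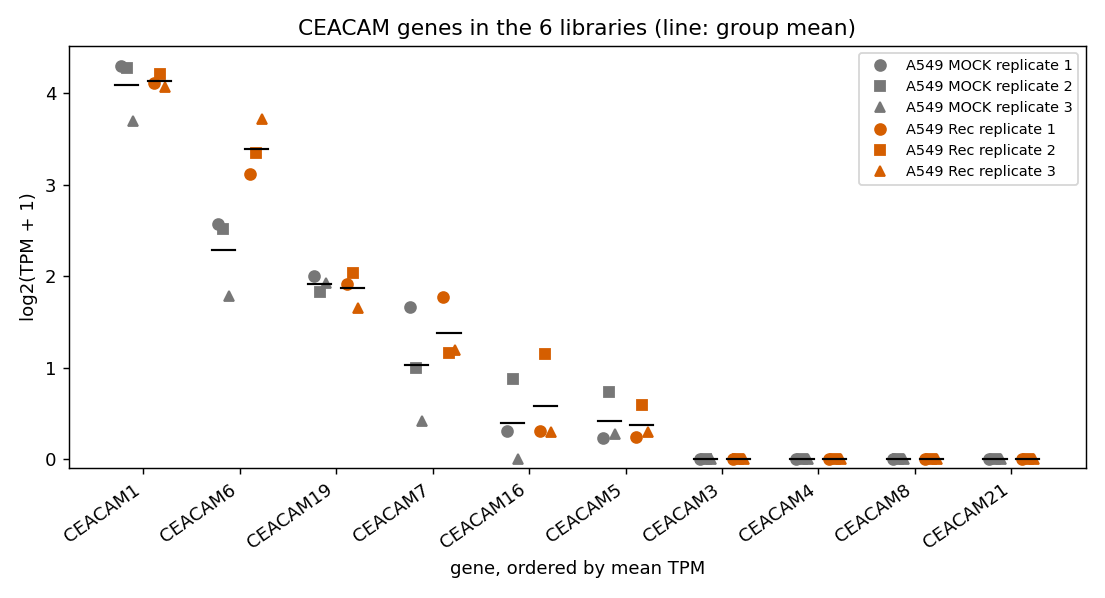
Level of the 10 CEACAM genes as log2(TPM + 1) in the 6 libraries, with circles, squares and triangles for replicates 1, 2 and 3, gray for A549 MOCK, orange for A549 Rec, and a line at each group mean. CEACAM1 is the highest member in every library, CEACAM6 is the member whose groups do not overlap, and 4 members lie at 0.

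CEACAM1, the long-tailed inhibitory receptor of the family, had the highest level. With the values of a group always in the order of replicates 1, 2 and 3, it gave 18.7, 18.3 and 11.9 TPM for A549 MOCK, as against 16.3, 17.6 and 15.8 TPM for A549 Rec. The A549 Rec values lay within the range of A549 MOCK, whose replicate 3 was the lowest of all. The means were 16.3 ± 3.81 and 16.5 ± 0.92 TPM (SD, n = 3 each).

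CEACAM6, a GPI-anchored adhesion protein, followed in the order. It gave 4.94, 4.72 and 2.45 TPM for A549 MOCK, as against 7.68, 9.20 and 12.1 TPM for A549 Rec. The lowest A549 Rec library was above the highest A549 MOCK library, and the extremes of both groups were the replicate 3 libraries. CEACAM1 exceeded CEACAM6 in 6 of 6 libraries.

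CEACAM19, a membrane member of which less is known, gave 3.01, 2.54 and 2.81 TPM for A549 MOCK, as against 2.77, 3.09 and 2.15 TPM for A549 Rec. The groups overlapped, and the spread was small as compared with that of CEACAM6. CEACAM6 exceeded CEACAM19 in 5 of 6 libraries, the exception being A549 MOCK replicate 3. These neighbours in the order were therefore not set apart in A549 MOCK, where CEACAM6 was above CEACAM19 in 2 of 3 libraries, whereas in A549 Rec it was so in 3 of 3.

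CEACAM7, a GPI-anchored member known from the colon epithelium, gave 2.17, 0.996 and 0.336 TPM for A549 MOCK, as against 2.42, 1.23 and 1.29 TPM for A549 Rec. These rest on 29, 13 and 5 reads and on 32, 19 and 18 reads, so that counting error alone is wide. In both groups replicate 1 was the highest, and the groups overlapped. CEACAM19 exceeded CEACAM7 in 6 of 6 libraries.

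CEACAM16, a secreted protein of the inner ear, and CEACAM5 were detected by few reads. CEACAM16 had 2, 7 and 0 reads for A549 MOCK, as against 2, 12 and 2 for A549 Rec, with means of 0.358 ± 0.433 and 0.558 ± 0.567 TPM (SD, n = 3 each). CEACAM5 had 3, 11 and 4 reads for A549 MOCK, as against 3, 10 and 4 for A549 Rec, with means of 0.352 ± 0.273 and 0.305 ± 0.179 TPM (SD, n = 3 each). For both genes the replicate 2 library was the highest of its group. CEACAM16 exceeded CEACAM5 in 4 of 6 libraries, and the 2 could not be placed in an order beyond their spread.

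CEACAM3 and CEACAM8 are known from granulocytes and CEACAM4 from myeloid cells, and CEACAM21 is a transmembrane member. No read was recovered for any of the 4. With exon lengths from GENCODE v44, the 3 reads that a count of 0 allows would amount to 0.175 to 0.461 TPM, so that a lower level could have given no read at this depth. This floor, like the intervals given further on, takes in counting error alone.

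The comparison of A549 Rec with A549 MOCK asked whether transcripts of the family differed with recoverin. CEACAM6 averaged 4.04 ± 1.38 TPM for A549 MOCK, as against 9.67 ± 2.26 TPM for A549 Rec (SD, n = 3 each), which is 2.39 times as high. The log2 difference was 1.10 (standard error 0.25) after adding 1 to each TPM, a step that shrinks the change of weakly expressed genes. As it was chosen for this rise, no test is given. In bulk RNA, fewer cells that express a gene and less RNA per cell cannot be told apart. Of the 17408 tested genes, 2.47% had groups apart in the same way, with A549 Rec higher, and 0.373% had a log2 difference of at least 1 with A549 Rec higher.

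CEACAM6 rested on 76, 71 and 42 reads for A549 MOCK, as against 117, 164 and 195 for A549 Rec. The exact Poisson 95% interval was 6.35 to 9.20 TPM for A549 Rec replicate 1 and 10.5 to 13.95 TPM for A549 Rec replicate 3. For A549 MOCK replicate 1, the highest of its group, it was 3.90 to 6.19 TPM. The intervals cover counting error within a library and are given as a description.

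Since mitochondrial transcripts took a larger share in replicate 3, the TPM were also scaled to 1000000 over nuclear genes only. CEACAM6 then gave 5.72, 5.60 and 3.75 for A549 MOCK, as against 9.28, 10.6 and 16.6 for A549 Rec. CEACAM1 gave 21.7, 21.7 and 18.2 for A549 MOCK, as against 19.7, 20.3 and 21.6 for A549 Rec on this scale. The groups of CEACAM6 remained apart, which describes the values for which it was chosen. The SD of CEACAM1 went from 3.81 to 2.01 for A549 MOCK and from 0.92 to 0.95 for A549 Rec. That of CEACAM6 went from 1.38 to 1.11 for A549 MOCK and from 2.26 to 3.89 for A549 Rec, so that the spread did not narrow throughout.

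The ratio of CEACAM6 to CEACAM1 within a library does not depend on the scaling of that library. It was 0.264, 0.258 and 0.205 for A549 MOCK, as against 0.471, 0.524 and 0.769 for A549 Rec. The lowest ratio in A549 Rec thus lay above the highest in A549 MOCK. Of the summed TPM of the 10 members, CEACAM1 held 64.0% to 67.3% in A549 MOCK and 49.6% to 55.1% in A549 Rec, while CEACAM6 held 13.8% to 16.9% and 25.9% to 38.1%. These shares contain the same values for which CEACAM6 was chosen and are given as a description.

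**Figure D2:**
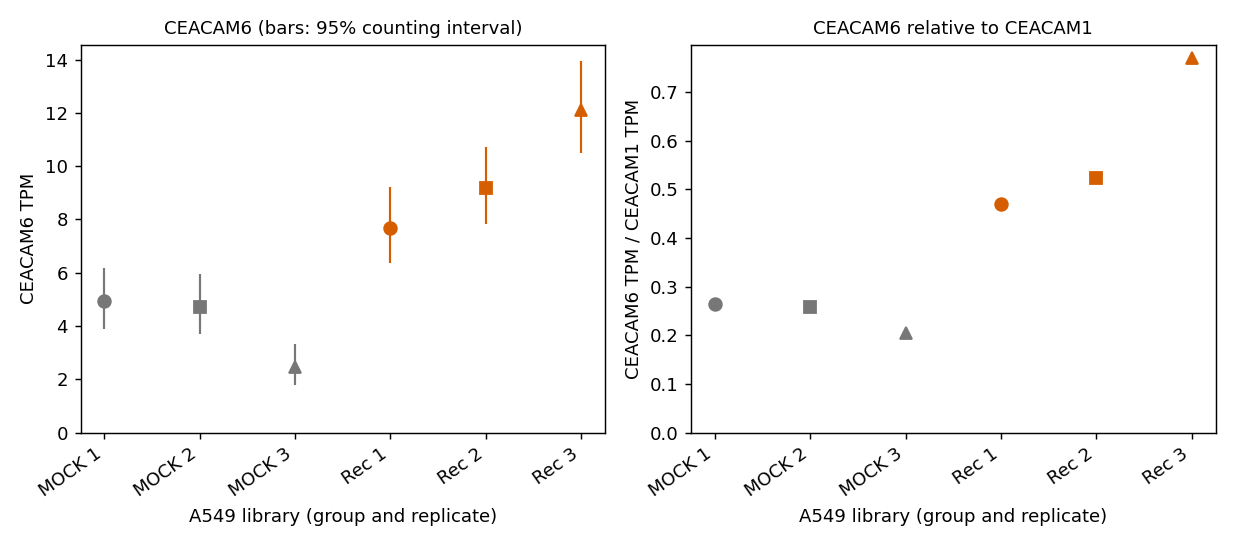
CEACAM6 in each library as TPM with exact Poisson 95% counting intervals (left) and as the ratio of its TPM to that of CEACAM1 (right), gray for A549 MOCK and orange for A549 Rec. Both panels place the 3 A549 Rec libraries above the 3 A549 MOCK libraries, with ratios of 0.471 to 0.769 against 0.205 to 0.264.

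Within same-numbered pairs, CEACAM6 was higher in A549 Rec in 3 of 3, where 13.1% of the tested genes were. As its groups were apart, any pairing would give this count, so it adds nothing to the group comparison. The log2 difference on the log2(TPM + 1) scale was 0.55 in the pair of replicates 1, 0.83 in that of replicates 2 and 1.93 in that of replicates 3. The pair of replicates 3 had the largest difference, and without it the mean difference was 0.69. The part of the high mitochondrial share of the replicate 3 libraries in this difference was not tested.

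Of the other members, the 3 that were tested gave no call. CEACAM1 had a log2 difference of 0.04 (95% interval -0.37 to 0.46, limma, Benjamini-Hochberg adjusted p = 0.9997 over all tested genes). CEACAM19 had a log2 difference of -0.05 (95% interval -0.44 to 0.34, adjusted p = 0.9997 from limma). CEACAM7 averaged 1.17 ± 0.93 TPM for A549 MOCK, as against 1.65 ± 0.67 for A549 Rec (SD, n = 3 each), and its log2 difference was 0.35 (95% interval -0.50 to 1.19, adjusted p = 0.9997 from limma). A call required both a log2 difference of at least 1, after adding 1 to each TPM, and an adjusted p under 0.05. Both were met by 0.00574% of the tested genes, namely RCVRN only. The paper, which used DESeq2 on read counts, reported both up-regulated and down-regulated genes. The share given here therefore holds for limma on log2(TPM + 1) only. With an unadjusted p under 0.05 at any fold change, 0 of the 3 members passed, as compared with 2.06% of the tested genes, and with voom weights on the recovered reads 0 passed as well.

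The intervals of CEACAM1 and CEACAM19 did not reach a difference of 1 on the log2(TPM + 1) scale in either direction, whereas that of CEACAM7 did. The exact permutation test on TPM (two-sided, smallest possible p of 0.1 for 3 against 3) gave p = 1 for CEACAM1, 0.4 for CEACAM7, 0.8 for CEACAM19, 0.6 for CEACAM16 and 0.9 for CEACAM5.

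By pair, CEACAM7 was higher in A549 Rec in 3 of 3, with log2 differences of 0.11, 0.16 and 0.78, where 13.1% of the tested genes were higher in all 3 pairs. CEACAM16 was also higher in 3 of 3, but by 0.002 in the pair of replicates 1, where each library had 2 reads. CEACAM1 was higher in 1 of 3 pairs, with differences of -0.19, -0.06 and 0.37, and CEACAM19 in 1 of 3, with differences of -0.09, 0.21 and -0.27. CEACAM5 differed by 0.002, -0.14 and 0.02. As with CEACAM6, the difference of CEACAM1 and CEACAM7 was largest in the pair of replicates 3, while that of CEACAM19 was lowest there.

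**Figure D3:**
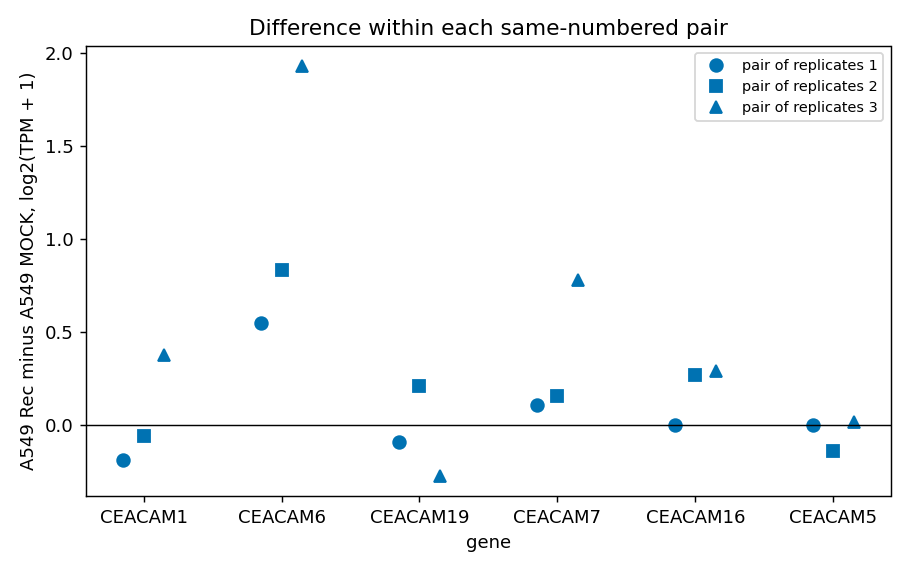
Difference of A549 Rec from A549 MOCK on the log2(TPM + 1) scale within each same-numbered pair, with circles, squares and triangles for the pairs of replicates 1, 2 and 3, for the 6 detected CEACAM genes. CEACAM6, whose groups do not overlap, lies above 0 in each pair, as in any pairing, at 0.55, 0.83 and 1.93. CEACAM1 and CEACAM19 lie on both sides of 0.

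To see whether the neighbourhood of CEACAM6 followed it, the genes within 500 kb of its span were examined. Of the 61 genes listed there, 39 were detected in any library and 22 were tested. Of these, 0 were called by limma and 0 had an unadjusted p under 0.05, both on TPM and with voom weights on the recovered reads. Their log2 differences had a median of 0.03, as compared with 0.02 over all tested genes, and ranged from -0.79 to 0.43. Each was smaller than that of CEACAM6, but CEACAM6 was chosen for its rise, so this comparison is a description only. A difference of at least 1 with A549 Rec higher was reached by 0.373% of all tested genes. In 0 of the 22 were the groups apart, where A549 Rec was wholly above for 2.47% and wholly below for 2.69% of all tested genes. In all 3 pairs, 4 of the 22 were higher in A549 Rec and 2 were lower, where the shares over all tested genes were 13.1% and 9.66%. Within 250 kb, 6 genes were tested, with a median log2 difference of 0.15, 5 of them above 0 and 1 below. Of these 6, A549 Rec was higher in all 3 pairs in 3 and lower in 0, and the groups were apart in 0. Whether so few genes differ from all tested genes was not tested.

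The gene nearest on the lower side that was tested was CEACAM7, at 44 kb, and between it and CEACAM6 lies CEACAM5, whose reads were nearly equal in the groups. A read-through gene, AC243967.1, joins CEACAM5 with CEACAM6 in the annotation and was listed at 0 in every library. An antisense gene across the end of CEACAM6, AC243967.2, had 4 reads over the 6 libraries. On the upper side CEACAM3 was at 0, and the nearest tested gene was RPS19, a protein of the small ribosomal subunit, at 87.7 kb. RPS19 averaged 935 ± 277 TPM for A549 MOCK, as against 979 ± 194 TPM for A549 Rec (SD, n = 3 each), with a log2 difference of 0.09 (standard error 0.28).

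The other neighbours with high expression also differed little. HNRNPUL1, an RNA-binding protein, had a log2 difference of 0.06 (standard error 0.21), and TGFB1, the ligand transforming growth factor beta 1, one of 0.03 (standard error 0.23). ERF and CIC, both transcriptional repressors, had differences of -0.01 and 0.03, and GSK3A, a serine/threonine kinase, had 0.13. The extremes were named after their values were seen. They were CD79A, a chain of the B cell receptor, at 0.43 (standard error 0.28), and MIR6797, a microRNA locus with 11 reads in all, at -0.79 (standard error 1.24). Each of these genes had an adjusted p of 0.9997 from limma.

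**Figure D4:**
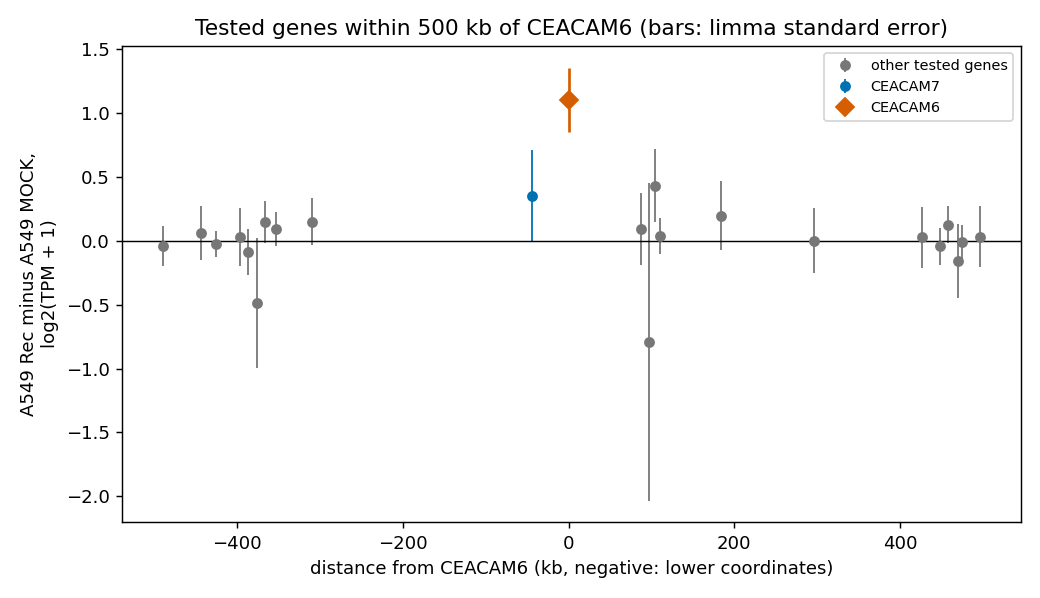
Difference of A549 Rec from A549 MOCK on the log2(TPM + 1) scale against the distance from CEACAM6 in kb, for the 22 tested genes within 500 kb, with limma standard errors as bars. CEACAM6 (orange diamond) lies at 1.10, CEACAM7 (blue) at 0.35, and the other genes between -0.79 and 0.43.

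Likeness to CEACAM6 was measured as Pearson's r of log2(TPM + 1) over the 6 libraries, which all tested genes share. CEACAM7 had an r of 0.53 (position 2382 of 17407 genes), CEACAM1 one of 0.46 (position 3493) and CEACAM19 one of -0.37 (position 14658). The 22 tested neighbours ranged from -0.36 to 0.83 with a median of 0.27, as compared with 0.18 over all genes. An r of at least 0.9 was reached by 86 genes (0.494%), and the 5 highest were ABCA12, AC025262.3, NUAK1, GALK2 and CRYZL2P, with r of 0.98 to 0.99. Their range was small, as ABCA12, a lipid transporter, stayed between 3.75 and 4.203 TPM for A549 MOCK and between 4.53 and 4.92 TPM for A549 Rec. With 6 libraries in 2 groups, a high r is a description only.

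As the members are related in sequence, it was examined whether reads could be exchanged between them. Of the 2495 windows of 100 bases in the longest CEACAM6 transcript of GENCODE v44, 0 occurred in the transcripts of any other CEACAM or PSG gene. For CEACAM1 it was 18 of 3392 windows, all shared with CEACAM3, and for each of the other members it was 0. By exon position, 4.67% of the exon bases of CEACAM6 and 3.49% of those of CEACAM5 were shared with the read-through gene AC243967.1 on the same strand, 2.34% of those of CEACAM19 with PVR, and 3.35% of those of CEACAM1 with LIPE-AS1 on the opposite strand. How reads in such shared bases were counted is not given in the sources used here.

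The pregnancy-specific glycoproteins, which form the other branch of the CEA family, were at or near 0. Of 11 listed genes, 6 had any read and none was tested. PSG4 was the highest, at 0.475, 0.453 and 0.454 TPM for A549 MOCK, as against 0.287, 0.136 and 0.393 TPM for A549 Rec, from 72 reads in all. Its groups were apart, with A549 Rec lower, as in 2.69% of the tested genes. PSG5 and PSG10P came next with 5 reads and 1 read.

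Genes that act with the CEACAM proteins were counted from lists. Of 24 genes for binding and signaling partners, 19 were tested and 0 were called by limma, with 1 at an unadjusted p under 0.05, where 2.06% of all tested genes passed, and a median log2 difference of 0.03. ITGB1, FLNA and CALM3 (integrin beta 1, filamin A and calmodulin) had the highest levels, and their differences were -0.001, -0.06 and 0.13. The 1 gene with an unadjusted p under 0.05 was ITGB3, integrin beta 3, at 0.0253 from limma. It gave 10.8, 10.5 and 10.5 TPM for A549 MOCK, as against 7.15, 6.78 and 9.63 TPM for A549 Rec, with a log2 difference of -0.40 (standard error 0.14, adjusted p = 0.9997 from limma). PTPN6 and PTPN11, the phosphatases that bind the tail of CEACAM1, had differences of 0.08 and 0.11. A549 Rec was wholly below A549 MOCK in 1 of the 19, ITGB3, and wholly above in 0. The shares over all tested genes were 2.69% and 2.47%. In all 3 pairs, 3 of the 19 were lower in A549 Rec and 1 was higher, where the shares over all tested genes were 9.66% and 13.1%.

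The enzymes that attach and remodel the GPI anchor were all tested (10 of 10), and 0 were called by limma, with 0 at an unadjusted p under 0.05. Their differences ranged from -0.09 to 0.07, and the highest levels were those of GPAA1, PIGS and PIGU, which belong to the transamidase, with differences of 0.01, 0.06 and 0.04. Of 24 other adhesion genes of the immunoglobulin superfamily, 17 were tested and 0 were called by limma, with 1 at an unadjusted p under 0.05, which was L1CAM, where 2.06% of all tested genes passed. BSG, PVR and NECTIN2 had the highest levels and differences of 0.09, 0.00 and 0.13. L1CAM, a neural adhesion molecule, gave 5.43, 5.50 and 5.64 TPM for A549 MOCK, as against 3.39, 4.26 and 4.57 TPM for A549 Rec, so that the groups were apart, with a log2 difference of -0.37 (standard error 0.14, unadjusted p = 0.0302 and adjusted p = 0.9997 from limma). ESAM, an endothelial adhesion molecule named after its values were seen, was also apart, at 2.18, 1.88 and 2.26 TPM for A549 MOCK, as against 1.10, 1.70 and 1.36 TPM for A549 Rec, with a log2 difference of -0.38 (standard error 0.19, adjusted p = 0.9997 from limma). Thus A549 Rec was wholly below A549 MOCK in 2 of the 17, where it was so in 2.69% of all tested genes. In 6 of these 17 genes A549 Rec was lower in all 3 pairs and in 0 it was higher, where the shares over all tested genes were 9.66% and 13.1%.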

How the data were processed

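RNA sequencing of 2D-cultured A549 Rec (3 libraries) and A549 MOCK (3 libraries) was used, with groups and replicate numbers taken from the descriptions in the labels. The authors trimmed the reads with Trimmomatic 0.38, mapped them with HISAT2 2.1.0, counted them per gene with featureCounts 1.6.3 and deposited TPM. The paper gives GRCh38, and the processing notes in the labels name mouse builds, while the deposited gene IDs and coordinates are human. The annotation release, the strand setting and the treatment of multi-mapped reads are not given in the sources used here. The deposited annotation was used for positions only.

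Reads were recovered by finding, for each gene, the whole length that made its TPM whole reads in all libraries (within 0.01), and the length equalled the GENCODE v44 exon length for 14535 of 29900 genes. As the length was chosen for this, whole values are no check. In a simulated table, 2884 of 2919 genes came back with their exact reads.

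Genes that reached a TPM of 1 in 3 or more libraries (17408) were tested on the log2(TPM + 1) scale without a block, using the moderated linear model of limma 3.58.1 with an intensity trend (R 4.3.3). On simulated data with 17408 genes in all, it called 199 of 200 genes changed 3-fold and 10 genes that were not changed. The changed genes were drawn from those with many reads, the spread was fixed, and replicate 3 was not shifted. The simulation therefore does not give the power for the deposited libraries or for genes with few reads, such as CEACAM7. Exact tests used SciPy 1.17.1, and alignments Biopython 1.88. After the group means were subtracted, same-numbered libraries correlated at 0.115, 0.164 and 0.342 (replicates 1, 2 and 3) over the tested genes, which are not independent. Correlations of differently numbered libraries were not computed, and both replicate 3 libraries had a high mitochondrial share. The pairs by number are therefore a description only. The members and lists were chosen with earlier results of these data known. All members were named, and of the neighbours the nearest tested, the 6 with the highest TPM and those with an unadjusted p under 0.05. Of the lists, the 3 highest and those with an unadjusted p under 0.05 were named, and further genes are marked as chosen later, apart from PTPN6, PTPN11 and the marker genes, which illustrate their lists. The alternatives are listed with their effect in the closing section. Leaving out both libraries of a replicate number was added after seeing the data.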

Additional observations from a re-analysis of the deposited data

How the results depend on the processing

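Among CEACAM1, CEACAM7 and CEACAM19, and among the genes within 500 kb of CEACAM6, 0 were called under each alternative run: all genes above 0 tested in place of the filter, a smaller pseudocount (0.1) alone or with genes kept by a mean TPM from 0.1 upward, normalization by quantiles, a total over nuclear genes, limma without trend, the replicate block, voom weights on recovered reads with and without the block, each library left out, each same-numbered pair left out, and windows of 250 and 1000 kb. With an unadjusted p under 0.05 from limma, 0 of 22 tested genes passed within 500 kb and 2 of 42 within 1000 kb, where 2.06% of all tested genes passed. The 2 were CYP2F2P (log2 difference of 0.59) and AC008537.2 (-0.75). In the fit with the replicate block, which cannot move a difference when each number occurs in both groups, the log2 difference of CEACAM6 was 1.10 with a standard error of 0.27 in place of 0.25, and the block changed no call. With libraries or pairs left out, the difference ranged from 0.69 to 1.38 for CEACAM6, from 0.04 to 0.67 for CEACAM7, from -0.16 to 0.16 for CEACAM1 and from -0.18 to 0.06 for CEACAM19. CEACAM7 was lowest without A549 MOCK replicate 3 and highest without A549 MOCK replicate 1. CEACAM1 turned below 0 without A549 MOCK replicate 3 (-0.16) and without both replicate 3 libraries (-0.12), and CEACAM19 turned above 0 without A549 Rec replicate 3 (0.06) and without both replicate 3 libraries (0.060). The lowest adjusted p of these 3 genes from limma over all alternatives was 0.939, for CEACAM1 without A549 MOCK replicate 3. With the pseudocount of 0.1, CEACAM7 moved from 0.35 to 0.70, and the value was the same alone and together with the filter on mean TPM. CEACAM16 moved from 0.19 to 0.73 with that pseudocount and filter. It stayed at 0.19 when all genes above 0 were tested with the main pseudocount. At this depth CEACAM3, CEACAM4, CEACAM8 and CEACAM21 had no read, and whether they are expressed at a lower level was not tested. CEACAM16, CEACAM5 and CEACAM7 had 25, 35 and 116 reads over the 6 libraries.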
